A study of Triticum aestivum with 6 samples.

Results

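The genes described here are 81 wheat root genes and loci that were expressed in control roots and at least 4-fold lower in roots exposed to a mycorrhizal fungus through a membrane. They were chosen by the deposited group values themselves, as all items with at least 1 and under 100 FPKM in the control and a ratio of control to treated value of at least 4. FPKM counts sequenced fragments per kilobase of transcript, scaled to the mapped fragments of a library. The rule found 81 of the 2578 items in the deposited table, which are 3.14% of all items and 15.5% of the 522 with the lower value in the treated roots.

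The study measured messenger RNA in roots of Triticum aestivum, cultivar Chinese Spring, in 2 groups of 3 libraries, 1 for each biological replicate. In the molecular signals communication treatment (MSC), each pot held 15 bags with 25 g of live Rhizophagus irregularis inoculum (BGC-HEB07D) apiece, closed by a filter membrane of 0.25 µm that holds back hyphae and spores and lets dissolved molecules through. In the non-mycorrhizal treatment (NM), 15 bags of the same size held 20 g of inoculum that had been sterilised by steam, together with a filtrate of unsterilised inoculum. Both groups grew outdoors from 23 March to 13 April 2017, with 15 plants per pot, in steam-sterilised soil mixed with quartz sand at 1:3. Live fungus, heat treatment of the inoculum, its mass and the added filtrate differ together between the groups and cannot be told apart. Cultivar, soil, pot volume, number of plants and growing period were common to both groups, per the labels.

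Arbuscular mycorrhizal fungi live inside the roots of most land plants and deliver phosphate and other nutrients in return for carbon. Before any contact, roots release strigolactones that stimulate the fungus, and the fungus releases lipochitooligosaccharides and short chitin oligomers that roots perceive through receptor kinases. In legumes and rice this perception is known to feed into a shared symbiosis signalling pathway, and roots that respond to the fungus are known to change the transcription of defence, transport and cell wall genes. Bread wheat is a hexaploid with subgenomes A, B and D, so that many genes have a homoeologous copy on the corresponding chromosome of each.

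None of the 81 identifiers carries a gene name, and 0 of them are in the RefSeq gene table of wheat (IWGSC CS RefSeq v2.1). Functions, sequences and pathway membership are therefore not given, and root identity could not be checked against marker genes. What the identifiers do give is their kind and, for 40 of the 81, a chromosome. A Traes identifier belongs to an annotated gene and names a chromosome and mostly an arm (6DL is the long arm of 6D). A second kind comes from a separate annotation of chromosome 3B. An XLOC number is the form in which Cufflinks numbers the loci it builds from aligned reads, and it names no chromosome.

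The table holds 1 FPKM value per group, so no value per replicate can be shown, the depth of the libraries is unknown, and no standard error or p-value belongs to any gene. Whether a difference exceeds the spread between replicates was not tested. In bulk roots, fewer cells of a type and less RNA per cell cannot be told apart. The 2 values chose the genes, so their differences are given as a description. As background, 124 of the 2578 listed items, 4.81%, were at least 4-fold lower in MSC, and among the 1544 items with 1 to under 100 FPKM in NM the share was 5.25%, which is the rule itself.

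The rule admits only items of 1 to under 100 FPKM in NM. Within these limits most of the strongly lowered genes lay toward the lower end. Their median was 0.36 FPKM in MSC and 2.72 FPKM in NM. The other 341 lower items within the same limits had a median of 6.89 FPKM in NM. In MSC, 22 of the 81 had under 0.1 FPKM, 41 had 0.1 to under 1 FPKM and 18 had at least 1 FPKM. In NM, 31 had 1 to under 2 FPKM, 23 had 2 to under 5, 23 had 5 to under 20, and 4 had 20 FPKM or more. Summed over all 81, the deposited values came to 71.3 FPKM in MSC and 537 FPKM in NM. The sum in NM is 1.80% of the summed NM level of all 522 lower items, because the most abundant lower items lie outside the limits on level or ratio.

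**Figure D1:**
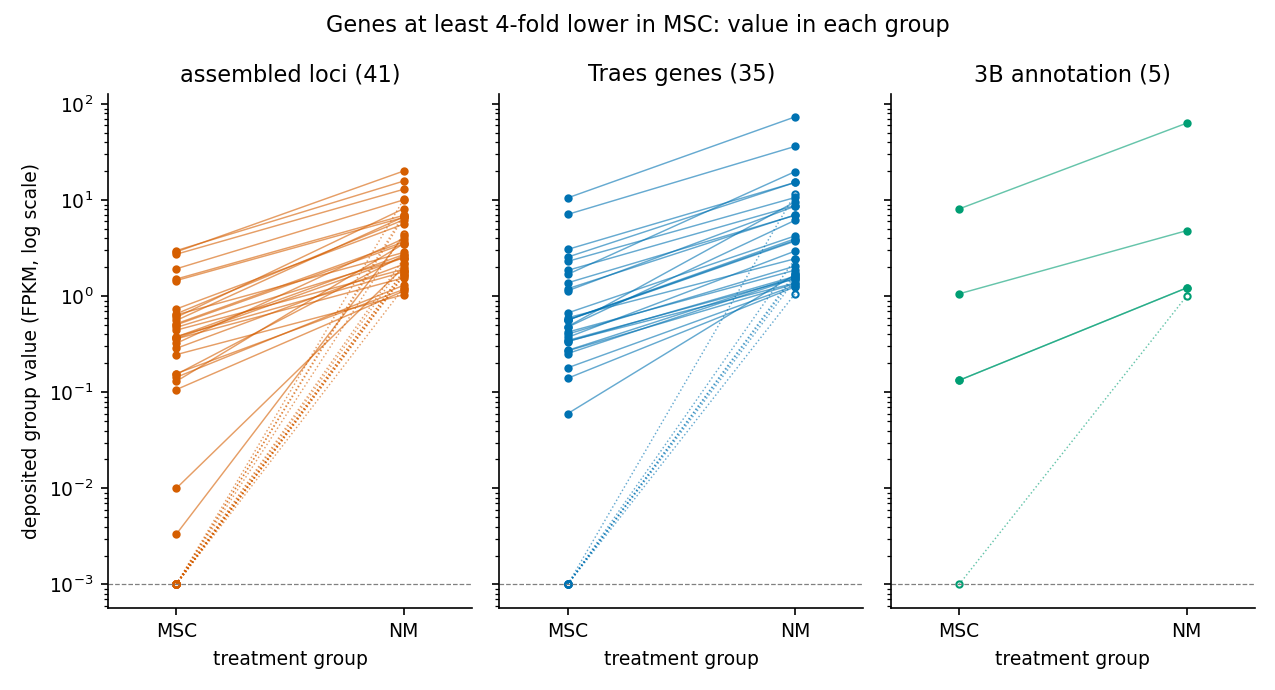
Deposited FPKM value (log scale) of each of the 81 genes in MSC and NM, each line a gene, in panels for 41 assembled loci, 35 Traes genes and 5 genes of the 3B annotation. Open circles and dotted lines mark the 19 genes at 0.001 FPKM in MSC (dashed line); the others reach at most 10.6 FPKM in MSC and 73.6 FPKM in NM.

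The ratio of NM to MSC, in which a larger value means a lower level in MSC, can be given for 62 of the 81. Its median was 6.84, with quartiles of 4.84 and 9.04. Of these 62, 45 lay between 4- and 8-fold, 17 at 8-fold or more and 6 at 16-fold or more. The other 341 listed items with the lower value in MSC and 1 to under 100 FPKM in NM had a median ratio of 2.37, a difference that the rule fixes. On the log2((MSC + 1)/(NM + 1)) scale, whose pseudocount of 1 FPKM compresses changes of weakly expressed genes, the median over the 81 was -1.58, with a range of -3.66 to -0.71. Over all 2578 listed items the median on this scale was 1.00.

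The ratios can be set beside the level in NM only as a description, since the rule used both, and without the genes at 0.001 FPKM in MSC. Those were 11 of the 31 genes of 1 to under 2 FPKM in NM, 4 of the 23 of 2 to under 5, 4 of the 23 of 5 to under 20 and 0 of the 4 above, so the largest differences at low level are missing from these ratios. The median ratio was 5.94 for the 20 genes of 1 to under 2 FPKM in NM with a ratio, 6.96 for the 19 of 2 to under 5 FPKM, 5.87 for the 19 of 5 to under 20 FPKM and 6.96 for the 4 most abundant. The 4 most abundant had ratios of 5.10 to 7.80.

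**Figure D2:**
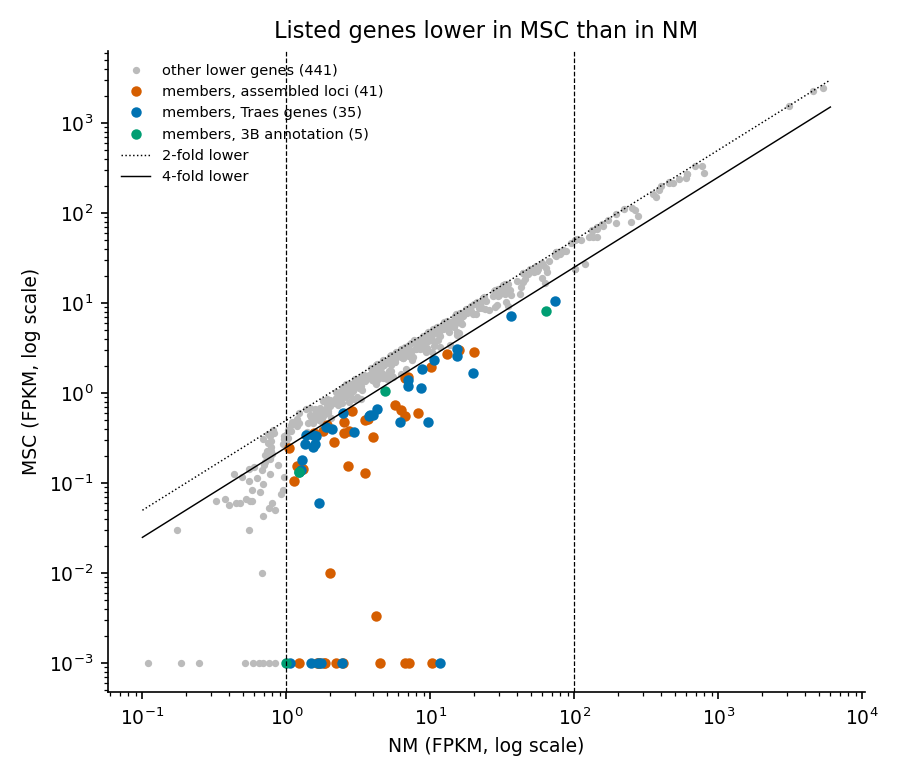
FPKM in NM (horizontal, log scale) and MSC (vertical, log scale) of the 522 listed items that were lower in MSC. The 81 coloured items lie under the 4-fold line and between the dashed limits at 1 and 100 FPKM in NM, and most grey items lie between the 2-fold and 4-fold lines.

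A few genes carried much of the difference in summed level. The 10 with the largest difference in FPKM made up 52.1% of the summed difference of all 81. The largest difference was that of Traes_6DL_E87DBFB1C, an annotated gene on the long arm of 6D, which had 10.6 FPKM in MSC and 73.6 FPKM in NM, a ratio of 6.97. It was followed by a gene of the 3B annotation with 8.11 FPKM in MSC and 63.3 FPKM in NM, and by a gene on 2AS with 7.11 FPKM in MSC and 36.3 FPKM in NM. These 3 together held 32.3% of the summed NM level of the 81. All 3 kept a readily measured level in MSC, between 12.8% and 19.6% of their NM value.

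Behind them came a gene on 1BL with 1.69 FPKM in MSC and 19.8 FPKM in NM, a ratio of 11.7. An assembled locus with 2.89 FPKM in MSC and 20.1 FPKM in NM was the most abundant of the assembled loci. The remaining 5 of these 10 genes had 11.6 to 15.8 FPKM in NM, and 4 of them kept 2.56 to 3.07 FPKM in MSC. The exception was a second gene on 6DL, listed at the lowest value in MSC. Of the 10, 3 were assembled loci.

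Of the 62 genes with a ratio, 6 had a ratio of 16 or more. The 19 genes at 0.001 FPKM in MSC, described below, have no ratio and are left out here. Among genes with at least 0.1 FPKM in MSC, the largest ratio was that of XLOC_055996, an assembled locus with 0.13 FPKM in MSC and 3.52 FPKM in NM, a ratio of 27.1. A gene on 1AL had 0.483 FPKM in MSC and 9.63 FPKM in NM, a ratio of 19.9. Another assembled locus had 0.153 FPKM in MSC and 2.67 FPKM in NM, a ratio of 17.4. The gene on 1AL was the most abundant in NM of the 6 with a ratio of 16 or more, 4 of which were assembled loci.

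For 3 genes the MSC value was above 0.001 but under 0.1 FPKM, and their ratios rest on few rounding steps. All 4999 deposited values other than 0.001 are whole multiples of 1/300 FPKM within 0.01 of a step, so 1 step is 0.00333 FPKM. An assembled locus with 4.22 FPKM in NM stood 1 step above 0 in MSC, and another with 2.00 FPKM in NM stood 3 steps above 0. A gene on 5AL had 0.06 FPKM in MSC, 18 steps, and 1.69 FPKM in NM, a ratio of 28.1. The first 2 of these ratios, 1265 and 200, are set by rounding and give no usable size.

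A further 19 of the 81, 23.5% (95% Wilson interval 15.6% to 33.8%, which covers counting of genes only), were listed at 0.001 FPKM in MSC, the lowest value in the table. No ratio is given for them. They had a median of 1.82 FPKM in NM and a range of 1.00 to 11.6 FPKM. Of these, 4 had at least 5 FPKM in NM: the gene on 6DL with 11.6 FPKM and 3 assembled loci with 10.2, 7.08 and 6.63 FPKM. Altogether 12 of the 19 were assembled loci, 6 were Traes genes, on 2BL, 4BS, 5AS, 5DS, 6BL and 6DL, and 1 was of the 3B annotation. The mirror image of the rule, items with 1 to under 100 FPKM in MSC and at least 4-fold higher there, held 608 items, of which 67, or 11.0% (8.77% to 13.8%), stood at 0.001 FPKM in NM. These 67 likewise pass the mirrored limit on ratio by construction. Whether these 2 shares differ beyond chance was not tested.

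Assembled loci made up 41 of the 81 strongly lowered genes, 50.6% (95% Wilson interval 39.95% to 61.2%). Among the other 341 lower items of the same NM range they made up 64, or 18.8% (15.0% to 23.2%), and among all 2578 listed items 494, or 19.2%. Identifier kind was no part of the rule. Along the ratio, the share was 20.1% of 289 lower items under 3-fold, 11.5% of 52 between 3- and 4-fold, 42.2% of 45 between 4- and 8-fold, 58.8% of 17 at 8-fold or more and 63.2% of the 19 at 0.001 FPKM. The same classes of items that were higher in MSC, with 1 to under 100 FPKM there, held 12.1%, 11.7%, 19.8%, 24.7% and 47.8% of assembled loci. In both directions the share was larger past 4-fold than under it, and past 4-fold the point values were larger among lower items. These differences were not tested.

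**Figure D3:**
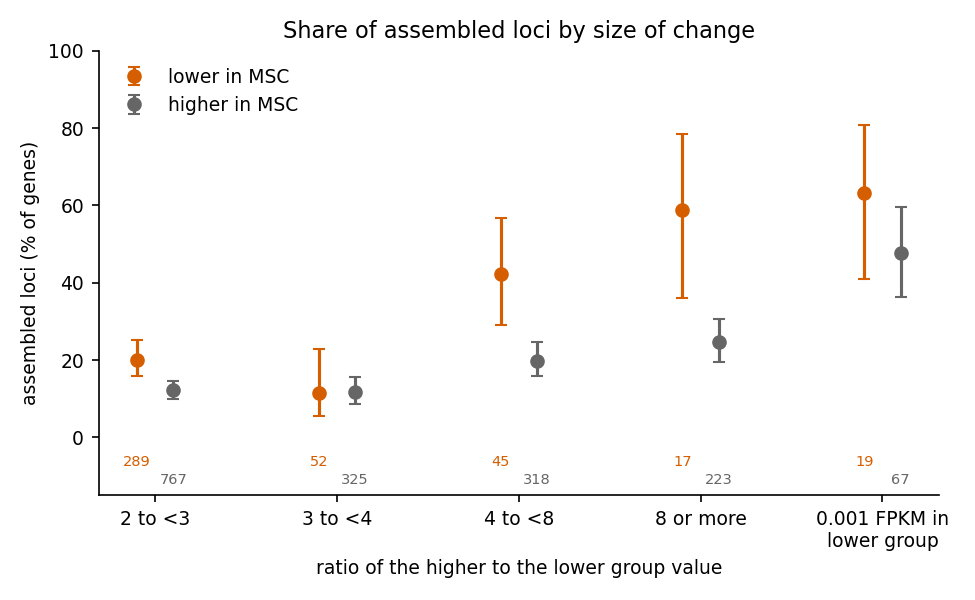
Percentage of assembled loci among listed items, by the ratio of the higher to the lower group value, for items lower and higher in MSC with 1 to under 100 FPKM in their higher group. Bars are 95% Wilson intervals over items and the numbers below are items per class; among lower items the share is 11.5% between 3- and 4-fold and 42.2% between 4- and 8-fold.

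Assembled loci were less abundant than annotated genes among the lower items, with a median of 3.52 FPKM in NM for the 105 loci of 1 to under 100 FPKM and 6.85 FPKM for the 295 Traes genes. Within each class of NM level the point value was higher for assembled loci. The Wilson intervals, which cover counting of items only, were apart in the middle 2 of the 4 classes. The rule itself used both group values, and whether the kinds of identifier differ was not tested. Of the lower items with 1 to under 2 FPKM in NM, 14 of 28 assembled loci and 14 of 35 Traes genes were at least 4-fold lower, 50.0% and 40.0%. At 2 to under 5 FPKM they were 14 of 32 and 8 of 77, 43.8% and 10.4%. At 5 to under 20 FPKM they were 12 of 37 and 11 of 121, 32.4% and 9.09%. At 20 FPKM or more they were 1 of 8 and 2 of 62.

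**Figure D4:**
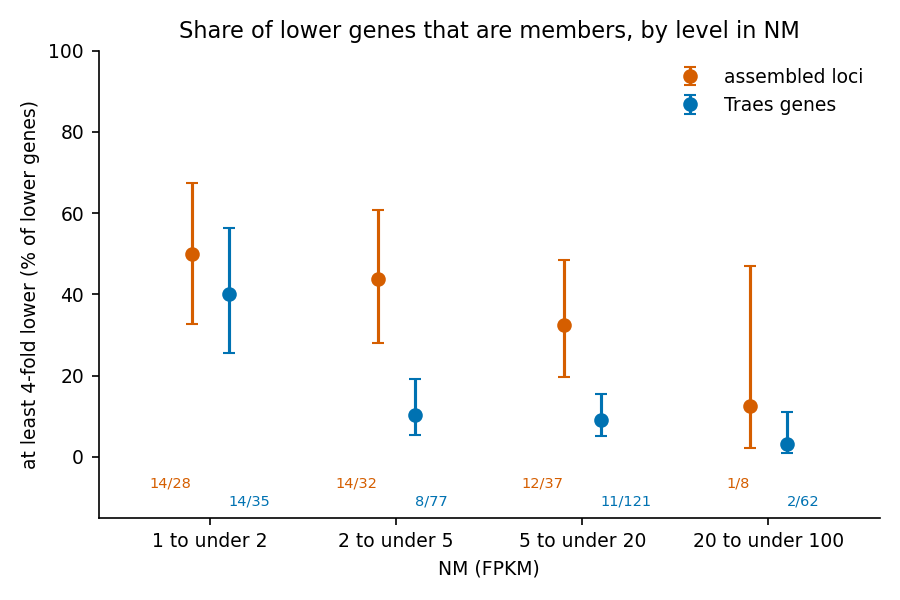
Percentage of lower items that were at least 4-fold lower in MSC, by FPKM in NM, for assembled loci and Traes genes, with 95% Wilson intervals over items and the counts below. The intervals are apart at 2 to under 5 and 5 to under 20 FPKM and overlap in the lowest and highest class. The rule used the same values, and no difference was tested.

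Within the 81, assembled loci and Traes genes had medians of like size. Assembled loci had a median of 0.287 FPKM in MSC and 2.72 FPKM in NM, and Traes genes one of 0.423 FPKM in MSC and 2.95 FPKM in NM. The median ratio was 7.11 for the 29 assembled loci above 0.001 FPKM in MSC and 5.99 for the 29 such Traes genes. At 0.001 FPKM in MSC stood 12 of the 41 assembled loci (29.3%) and 6 of the 35 Traes genes (17.1%), with intervals of 17.6% to 44.5% and 8.10% to 32.7% that overlap. The loci held 35.1% of the summed NM level. Their numbers were spread from 4589 to 130336, no 2 of the 41 were closer than 138 apart, and the nearest listed locus of any kind was at least 4 numbers away.

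The 40 genes with a chromosome were spread over 17 of the 21 wheat chromosomes. Subgenomes A, B and D held 13, 15 and 12 of them, shares of 32.5%, 37.5% and 30.0%. The other lower items of 1 to under 100 FPKM in NM had 33.6%, 36.5% and 29.96% of their placed items there, so the mix was close in point values. Without the genes at 0.001 FPKM in MSC, median ratios were 6.55 on A, 6.07 on B and 5.49 on D chromosomes. Left out were 1 of the 13 genes on A, 4 of the 15 on B and 2 of the 12 on D. Chromosomes 3D, 6A, 7A and 7D held none, with 11, 13, 15 and 18 lower items listed on them. Strongly lowered genes were 6 of the 56 lower items (10.7%) on chromosomes 3A, 3B and 3D together. They were 3 of 35 (8.57%) on 6A, 6B and 6D and 1 of 48 (2.08%) on 7A, 7B and 7D. The counts of 0 are therefore not read as a trait of these chromosomes.

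Homoeologous group 2, which comprises chromosomes 2A, 2B and 2D, held the most, 13 of the 40 or 32.5% (95% Wilson interval 20.1% to 48.0%). Of all 2083 listed items with a chromosome it held 484, or 23.2%, which lies inside the interval of the strongly lowered genes. It held 17.3% (13.3% to 22.2%) of the other lower items of the same NM range and 24.6% of the items higher in MSC. Of the placed items at least 4-fold higher in MSC, with 1 to under 100 FPKM there, it held 132 of 458, or 28.8% (24.9% to 33.1%), an interval that overlaps that of the strongly lowered genes. Group 5 held 9 of the 40, group 3 held 6, groups 1 and 4 held 4 each, group 6 held 3 and group 7 held 1. As a share of the lower items of 1 to under 100 FPKM on each group's chromosomes, this was 21.3% of 61 in group 2, 17.3% of 52 in group 5 and 2.70% of 37 in group 7. All of these intervals overlap at these counts.

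**Figure D5:**
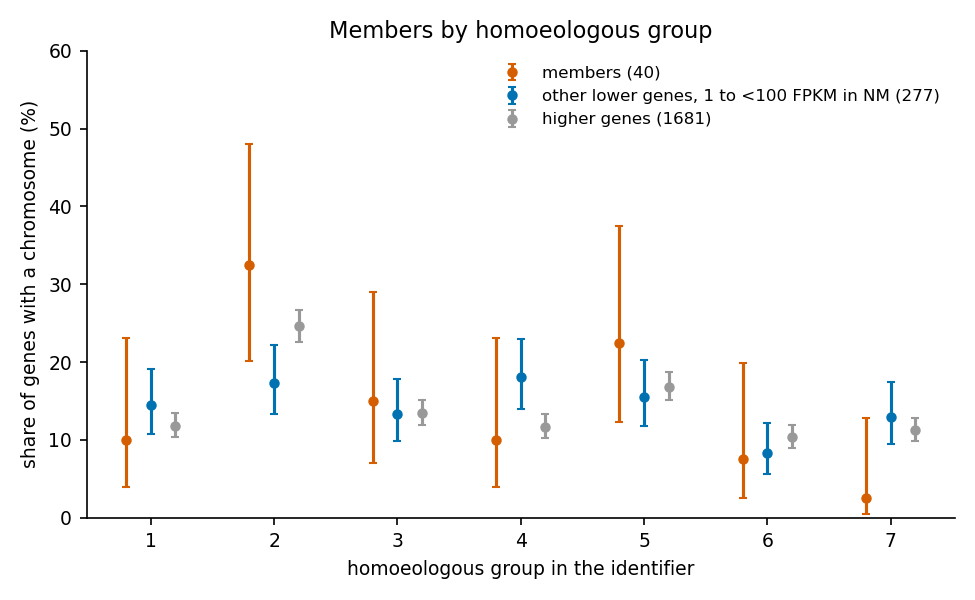
Share of items with a chromosome in each homoeologous group, for the 40 strongly lowered genes, the 277 other lower items of 1 to under 100 FPKM in NM and the 1681 items higher in MSC, with 95% Wilson intervals over items. Group 2 has the highest point value, 32.5%, among the strongly lowered genes, with a wide interval.

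Of the 24 arms or chromosomes that the identifiers name, 17 held 1 strongly lowered gene and 7 held more. The 4 genes on 2AS had 0.273, 0.567, 1.86 and 7.11 FPKM in MSC, against 1.59, 3.97, 8.79 and 36.3 FPKM in NM, with ratios of 4.73 to 7.01. The 3 other group 2 short arm genes, both on 2BS and the one on 2DS, had ratios of 4.98, 6.07 and 5.87. Ratios of this size are not particular to these 7 genes. Of the 62 strongly lowered genes with a ratio, 45 lay between 4- and 8-fold. Whether any of the 7 are homoeologous copies of one another is not known from the identifiers.

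The 4 genes on 2DL had 0.347, 0.373, 0.403 and 0.477 FPKM in MSC, against 1.53, 2.95, 2.06 and 6.18 FPKM in NM. Their ratios were 4.40 to 12.96. MSC values of this size are not particular to 2DL, as 41 of the 81 had 0.1 to under 1 FPKM in MSC and the median was 0.36 FPKM. On 5AL, 4 of the 11 lower items were strongly lowered, and these had 0.06 to 0.67 FPKM in MSC, against 1.35 to 4.25 FPKM in NM. On 5DL 1 of 22 lower items was strongly lowered, and on 5BL 1 of 14. Over all group 5 chromosomes the count was 9 of 65, or 13.8% (7.46% to 24.3%). Over all 522 lower items, with or without a chromosome, the share was 15.5%. This is not a like baseline for single arms or groups, since assembled loci name no chromosome. A chromosome was named for 40 of the 81 and for 362 of the 441 other lower items. The share among items with a chromosome is therefore below 15.5%. The difference between these arms was not tested. Of the group 1 long arms, 1AL and 1BL held 1 of the 81 each, the genes described above, out of 20 and 16 lower items listed on these arms. Over all group 1 chromosomes the count was 4 of 69 lower items, or 5.80%.

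The 5 genes of the 3B annotation had 1.00 to 63.3 FPKM in NM, with a median of 1.22 FPKM, and 0.001 to 8.11 FPKM in MSC, with a median of 0.133 FPKM. Besides the gene with 63.3 FPKM in NM, there was one with 1.06 FPKM in MSC and 4.81 FPKM in NM, one at 0.001 FPKM in MSC and 1.00 FPKM in NM, and a pair with identical values of 0.133 FPKM in MSC and 1.22 FPKM in NM. The identical pair were the only 2 of the 81 that shared both values with another listed item, and near-identical copies cannot be told apart in such values, so the 81 may stand for 80 separate measurements. The gene with 4.81 FPKM in NM shares the first 12 characters of its identifier with 2 other listed genes, and both were higher in MSC. These had 9.42 and 0.69 FPKM in MSC, against 2.80 and 0.233 FPKM in NM.

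At the limits of the rule, values ran on without a gap. The smallest ratios inside were 4.04 (5BS), 4.12 (4DL) and 4.20 (an assembled locus), and the largest outside were 3.96 (3B), 3.87 (3DL) and 3.85 (2AL). Within 0.5 of the limit there were 8 genes inside and 13 outside. At the lower limit of level, the genes inside had 1.00, 1.04 and 1.06 FPKM in NM, and those outside had 0.97, 0.953 and 0.923 FPKM in NM with ratios of 8.31, 11.4 and 12.04. In all, 40 items with under 1 FPKM in NM were at least 4-fold lower, 9 of them at 0.001 FPKM in MSC. Above the upper limit there were 3, of which 2 genes on 1AL with identical values had 24.0 FPKM in MSC and 100.3 FPKM in NM, and a gene on 3AS had 27.4 FPKM in MSC and 118 FPKM in NM.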

How the data were processed

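Roots of about 100 mg per replicate were extracted and polyadenylated RNA was sequenced, per the labels' protocols. The authors deposited FPKM values, 1 per treatment group; the column headed MF is the one that the labels of the MSC samples name. RSEM (version 1.3.0), Cufflinks and TopHat2 appear in the submitters' processing notes, with no role stated. The sources used here do not give the genome build, the annotation, any scaling between libraries or the rule by which items entered the table. All listed items differ by at least 2-fold, so genes changed less were not analysed here, and a shift in scale between the groups cannot be told apart from a change in the genes. The value 0.001 was read as a stand-in for 0. Rounded group values leave no counts or depth to recover, so no test was run, and low values have no stated precision.

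The members and the classes compared were chosen with earlier results of these data known. Identifiers are printed for 2 genes by rule, the largest difference in FPKM and the largest ratio with at least 0.1 FPKM in MSC; others are described by arm or kind. Planned lists of pathway genes could not be applied, because 0 of the 2578 identifiers matched the reference. In the table, 21 rows stand out of identifier order, and 0 of the 81 are among them. Shares have 95% Wilson intervals (Python 3.11.15, SciPy 1.17.1, NumPy 2.4.6, pandas 2.3.3, matplotlib 3.10.9). The selection code was checked on simulated data. No simulated item stood at 0.001 FPKM, and none outside the limits on level was 4-fold lower, so those cases were not checked. Alternatives were other limits on ratio and level, pseudocounts, rescaling and copies counted once.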

Additional observations from a re-analysis of the deposited data

How the results depend on the processing

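The number of strongly lowered genes, 81, follows the limits of the rule. It was 133 at a ratio of at least 3, 36 at 8, 50 with at least 2 FPKM in NM and 27 with at least 5 FPKM. With a pseudocount of 1 FPKM in the ratio 21 remained, and with 5 FPKM 2 did; both compress the ratios of weak genes by construction. Rescaling MSC to an equal upper quartile of the listed items, a factor of 0.486, carried all 422 lower items of 1 to under 100 FPKM past 4-fold, since each was at least 2-fold lower already. With 5-fold, 0.5 FPKM, no upper limit, a pseudocount of 0.1 FPKM, no items at 0.001 FPKM, copies counted once or no items out of order, the number stayed within 1.5 times. The median log2 change was -2.58 with a pseudocount of 0.1 FPKM and -0.57 with 5. The median ratio was 7.51 with the 19 genes at 0.001 FPKM set to 0.005 FPKM. The genes were 19.2% of the lower items of 1 to under 100 FPKM in NM. In alternatives chosen after seeing the data, assembled loci were 35.3% at a ratio of at least 3, 61.1% at 8 and 48.1% with at least 5 FPKM in NM, against 50.6% as reported. Homoeologous group 2 held 23.3% at a ratio of at least 3, 21.4% at 8 and 35.7% with at least 5 FPKM in NM, against 32.5% as reported. After rescaling the shares were 24.9% and 19.2%. These are by construction the shares among all lower items of 1 to under 100 FPKM in NM. The cause of the changes was not tested. No paired analysis was possible because each group is represented by 1 deposited FPKM column, and for the same reason no replicate could be left out.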
